A study of Mus musculus with 26 samples.

Results

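Klf10 and 9 other genes of the Krüppel-like factor (KLF) family were followed in RNA-seq of mouse oocytes at the germinal vesicle (GV) stage, the fully grown stage before meiosis resumes. The members were 10 of the 24450 gene rows in the count table: Klf2, Klf4, Klf5, Klf6, Klf9, Klf10, Klf11, Klf13, Klf16 and Klf17. Klf10 was selected on its measured level, which was higher in each group whose Tet3 carries an altered or deleted domain (called LCD in the labels), and the others were chosen for contrast within the family. The values of Klf10 in those groups therefore describe the choice, and its rises there over groups with an intact domain are given without p-values.

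KLF proteins are transcription factors that bind GC-rich and CACCC sequences through a set of zinc fingers at their C terminus. Klf10 and Klf11 form a pair first described as TGF-beta-inducible early genes, and with Klf9, Klf13 and Klf16 they recruit the co-repressor Sin3a through a short N-terminal helix. Klf2, Klf4 and Klf5 are best known from embryonic stem cells, where they help to hold pluripotency, and Klf17 is a germ-cell member with abundant maternal transcript in mouse oocytes. Tet3 is the dioxygenase that oxidizes 5-methylcytosine and is the main Tet enzyme of the oocyte, and Dnmt3a is the enzyme that lays down methylation in the growing oocyte.

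Each library was made from a pool of 10 oocytes. There were 5 libraries of an HD mutant (Tet3 LCD HD Mutf/f; Zp3-Cre), 2 of a double knockout (DKO; Dnmt3af/f, Tet3 LCDf/f; Zp3-Cre), 7 of an LCD knockout (LCD KO; Tet3 LCDf/f; Zp3-Cre), 2 of a Dnmt3a knockout (Dnmt3af/f; Zp3-Cre), 2 labelled Tet3 KO (Tet3f/f; Zp3-Cre) and 6 wild type (WT; Tet3 LCDf/f). Zp3-Cre deletes floxed alleles in growing oocytes; all groups but WT carried it, so each comparison with WT differs in Cre as well as in the allele, while DKO and Dnmt3a KO both carry it. The sources used here do not define HD or say whether pools of a group came from separate animals, so p-values measure the spread between these pools. A further pair of columns, labelled Tet1, 2, 3f/f; Zp3-Cre, held the same counts as the pair labelled Tet3 KO, gene by gene, and was counted once, leaving 24 distinct libraries.

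LCD KO and WT libraries were made in batches 1, 2 and 3, HD mutant libraries 1 to 3 in batch 2, and the 2 libraries each of DKO, Dnmt3a KO and labelled Tet3 KO in batch 3. No batch was given for HD mutant libraries 4 and 5, which stayed outside the tests. The depth of batch 1 was 3329734 to 4309573 gene counts, that of batch 2 was 5403852 to 7833087, and that of batch 3 was 2558479 to 4144414, with 1838824 and 2242310 for the 2 libraries without a batch. Tet3 itself averaged 116 ± 71.2 CPM (the count normalised to library size) in HD mutant oocytes (SD, n = 5), 61.3 ± 6.04 in DKO (n = 2), 91.5 ± 63.0 in LCD KO (n = 7), 304 ± 98.9 in Dnmt3a KO (n = 2) and 248 ± 95.3 in WT oocytes (n = 6). The libraries labelled Tet3 KO held 261.5 and 356.5 CPM of Tet3, within the WT range. They held 104 to 142 CPM of Dnmt3a, below the WT range of 236 to 619 CPM, so they go against their label and are written as labelled Tet3 KO throughout. Dnmt3a stood at 107 to 132 CPM in Dnmt3a KO and at 97.1 to 99.5 CPM in DKO. The levels of Tet3 and Dnmt3a thus do not tell the labelled Tet3 KO libraries apart from Dnmt3a KO. The summed level of 14 granulosa cell markers was 70.4 to 102 CPM in HD mutant, 62.6 to 71.0 in DKO, 72.8 to 352 in LCD KO and 63.4 to 121 CPM in WT libraries. In Dnmt3a KO the sum was 60.2 to 71.5 CPM and in labelled Tet3 KO 69.3 to 87.2 CPM. Only Cyp19a1 (20.1 to 35.7 CPM), Nr5a2 (13.6 to 32.2) and Kitl (2.84 to 14.9) were present in every library. Inha had a median of 9.85 CPM and made up most of the highest sum. The other markers had medians of 0 to 1.22 CPM, with Foxl2, Has2 and Tnfaip6 at a median of 0 and Ptx3 at 0 throughout. The part of such cells in the results was not tested.

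Promoter sequences, from 250 bases before to 50 bases after the transcription start, are shown for the 2 members that passed a test and for the most abundant member, because they differ widely in CpG content, the dinucleotide that Dnmt3a methylates and Tet3 oxidizes. They are RefSeq sequences on GRCm38.p6, and the capitals mark each CG. Klf11 lies on the plus strand at chr12:24651121-24651420, Klf6 on the plus strand at chr13:5861239-5861538 and Klf17 on the minus strand at chr4:117765617-117765916.
Klf11: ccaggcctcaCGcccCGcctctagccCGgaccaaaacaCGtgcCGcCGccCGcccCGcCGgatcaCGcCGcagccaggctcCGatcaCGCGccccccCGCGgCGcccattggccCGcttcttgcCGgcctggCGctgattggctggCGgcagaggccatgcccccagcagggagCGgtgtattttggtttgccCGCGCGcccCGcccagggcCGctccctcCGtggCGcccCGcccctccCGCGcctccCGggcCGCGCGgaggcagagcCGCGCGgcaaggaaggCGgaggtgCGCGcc
Klf6: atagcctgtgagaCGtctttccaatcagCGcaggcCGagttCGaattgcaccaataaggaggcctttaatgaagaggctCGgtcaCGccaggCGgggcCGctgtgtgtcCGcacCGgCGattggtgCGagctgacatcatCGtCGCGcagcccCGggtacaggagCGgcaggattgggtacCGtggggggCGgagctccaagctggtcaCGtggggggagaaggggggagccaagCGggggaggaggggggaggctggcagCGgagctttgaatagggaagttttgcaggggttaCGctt
Klf17: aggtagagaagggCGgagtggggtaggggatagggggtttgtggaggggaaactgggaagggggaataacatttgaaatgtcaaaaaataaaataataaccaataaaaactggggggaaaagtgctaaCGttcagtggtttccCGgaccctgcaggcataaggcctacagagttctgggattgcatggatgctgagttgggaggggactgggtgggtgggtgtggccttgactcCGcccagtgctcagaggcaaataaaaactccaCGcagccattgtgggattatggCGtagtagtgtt
The Klf11 window held 42 CpGs, more than 97.0% of 32851 promoters of that length, the Klf6 window 23, more than 78.5% of them, and the Klf17 window 6, more than 43.6%. Promoters of Klf2, Klf4, Klf9 and Klf13 held 32, 40, 28 and 32, and the median promoter 7. CACCC, searched on both strands, occurred 3 times in the Klf17 window and not in those of Klf11 and Klf6, and 57.5% of all promoters held it. GGGCGG, the GC box, which itself contains a CG, occurred 4 times for Klf11, 1 time for Klf6 and 2 times for Klf17 on either strand, against 35.7% of promoters with at least 1. CAGAC, the SMAD-binding letters, was found on neither strand in any of the 7 member promoters, while 49.6% of all promoters held it. Klf5, Klf10 and Klf16 had no entry in the promoter table.

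Klf10, which represses transcription downstream of TGF-beta, had 47.7, 42.9, 38.4, 58.2 and 49.4 CPM in the 5 HD mutant libraries. In DKO it had 98.7 and 110.4 CPM, and in LCD KO 84.1, 75.8, 101.5, 63.3, 55.4, 69.9 and 84.0 CPM. Every one of these 14 libraries lay above every library of the other groups. Klf10 had 11.01 and 10.7 CPM in Dnmt3a KO, 12.9 and 10.3 CPM in labelled Tet3 KO, and 9.32, 6.90, 7.02, 5.19, 7.22 and 6.95 CPM in WT oocytes. The lowest value among HD mutant, DKO and LCD KO, 38.4 CPM, was thus well clear of the highest elsewhere, 12.9 CPM. Klf10 was seen in WT oocytes in all 6 libraries, with 18 to 29 counts each, so its transcript was present at a low level there. In a pool, a moderate level in all oocytes and a high level in some of them cannot be told apart.

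**Figure D1:**
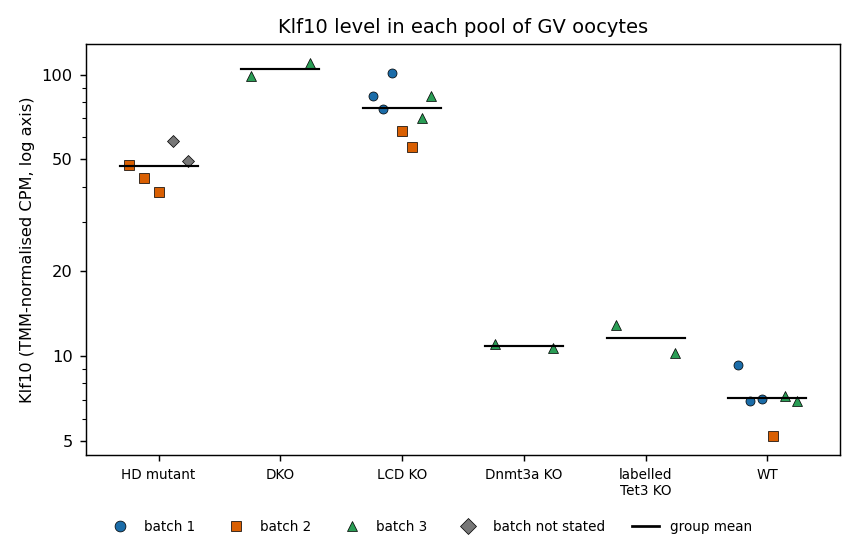
Klf10 level in each library in CPM on a log axis, by group, with colour and marker for the batch and a line at each group mean. HD mutant, DKO and LCD KO libraries lie between 38.4 and 110.4 CPM, and Dnmt3a KO, labelled Tet3 KO and WT libraries between 5.19 and 12.9 CPM.

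The order of the group means, which rests on the choice of Klf10 and is given as a description, was DKO at 105 ± 8.24 CPM (SD, n = 2), LCD KO at 76.3 ± 15.3 (n = 7), HD mutant at 47.3 ± 7.45 (n = 5), labelled Tet3 KO at 11.6 ± 1.89 (n = 2), Dnmt3a KO at 10.9 ± 0.216 (n = 2) and WT at 7.10 ± 1.32 CPM (n = 6). The log2 fold change over WT was 3.02 ± 0.21 in HD mutant (SE), 3.90 ± 0.20 in DKO and 3.48 ± 0.14 in LCD KO, and that of DKO over Dnmt3a KO was 3.27 ± 0.24. The LCD KO ratio to WT differed little between batches, at 11.2 in batch 1, 11.4 in batch 2 and 10.9 in batch 3. In batch 2 HD mutant libraries stood at 8.28 times the single WT library, and in batch 3 DKO stood at 14.8 times WT and 9.63 times Dnmt3a KO. With any 1 library left out, the log2 fold change stayed between 3.41 and 3.53 in LCD KO, between 2.94 and 3.09 in HD mutant and between 3.83 and 3.98 in DKO.

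The comparisons that were not used to choose Klf10 gave smaller differences, none of which passed the test. Tests were edgeR's quasi-likelihood F tests with batch as a covariate, adjusted by Benjamini-Hochberg over the 11794 genes tested and called below 0.05. In labelled Tet3 KO Klf10 averaged 11.6 CPM, against 7.08 CPM in the WT libraries of the same batch, with no overlap (log2 fold change 0.73 ± 0.23, unadjusted p = 0.00353, adjusted p = 0.138). Klf10 averaged 10.9 CPM in Dnmt3a KO, against the same 7.08 CPM in WT, also with no overlap (log2 fold change 0.64 ± 0.24, unadjusted p = 0.012, adjusted p = 0.232). Both pairs of libraries were thus slightly above batch 3 WT, far under the LCD KO level of 77.0 CPM in that batch. With 2 libraries against 2, a lack of overlap alone carries little weight. These comparisons share the WT libraries with each other and with the 3 over WT that chose Klf10. The Dnmt3a KO libraries were also the low side of DKO over Dnmt3a KO, on which Klf10 was chosen too. Dnmt3a KO over WT is therefore not free of the choice.

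Among the groups with an altered domain, Klf10 averaged 43.0 CPM in HD mutant and 59.4 CPM in LCD KO within batch 2, with no overlap between 3 and 2 libraries. The log2 fold change of HD mutant over LCD KO was -0.46 ± 0.18 (unadjusted p = 0.0148, adjusted p = 0.244, edgeR), so the difference did not pass. Klf10 averaged 105 CPM in DKO and 77.0 CPM in LCD KO within batch 3, again with no overlap, between 2 libraries of each. The log2 fold change was 0.43 ± 0.19 (adjusted p = 0.581, edgeR). The test of non-additivity, DKO minus Dnmt3a KO minus LCD KO plus WT, gave -0.21 ± 0.27 on the log2 scale (adjusted p = 0.905). That term is the difference of DKO over Dnmt3a KO and LCD KO over WT, which both chose Klf10. All comparisons of this paragraph use libraries that chose Klf10, so their p-values are not free of the choice and serve as description. Of the neighbours in the order of levels, DKO and LCD KO, LCD KO and HD mutant, and Dnmt3a KO and WT therefore did not differ beyond the adjusted threshold.

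Klf11, the closest relative of Klf10 and a repressor that also binds Sin3a, was higher in LCD KO, DKO and in 3 of the 5 HD mutant libraries. It had 83.1, 123.6, 120.4, 53.4 and 36.7 CPM in HD mutant, 95.7 and 86.7 CPM in DKO, and 89.2 (lowest), 109.6 (median) and 139 CPM (highest) in LCD KO. Klf11 had 33.8 and 56.5 CPM in Dnmt3a KO, 64.6 and 54.7 in labelled Tet3 KO, and 38.9 (lowest), 58.8 (median) and 63.0 CPM (highest) in WT. LCD KO and DKO did not overlap WT, whereas HD mutant libraries 4 and 5, those with no stated batch, lay within and below the WT range.

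Klf11 rose in LCD KO by a log2 fold change of 1.002 ± 0.14 (adjusted p = 1.13e-05, edgeR). Within batches it averaged 107.5 CPM in LCD KO and 60.7 CPM in WT in batch 1, 138 and 61.4 in batch 2, and 99.4 and 44.7 in batch 3, with no overlap in any. Batch 2 had a single WT library, and batch 3 had 2 libraries of each group. Without any 1 library the log2 fold change of Klf11 stayed between 0.93 and 1.03. Klf11 also rose in DKO over WT by 0.95 ± 0.21 (adjusted p = 0.0102) and in DKO over Dnmt3a KO by 1.0 ± 0.24 (adjusted p = 0.0276). The DKO calls rested on few libraries: over WT the adjusted p was 0.109 without DKO 1, and over Dnmt3a KO it was 0.149 without DKO 1, 0.0798 without DKO 2 and 0.214 without Dnmt3a KO 1. In HD mutant over WT, tested on libraries 1 to 3, Klf11 rose by 0.72 ± 0.21 (adjusted p = 0.035). That adjusted p was 0.094 without HD mutant 2, 0.0778 without HD mutant 3, 0.0578 without WT 3, 0.158 without WT 4 and 0.171 with libraries 4 and 5 added and no batch term. Klf11 in Dnmt3a KO stood at -0.05 ± 0.22 over WT (adjusted p = 0.951), in labelled Tet3 KO at 0.33 ± 0.22 (adjusted p = 0.767), and its non-additivity term was -0.00 ± 0.29 (adjusted p = 1).

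Klf6, a broadly expressed family member first described in liver injury, was at a low level, with 4 to 45 counts per library. It had 5.03, 2.96, 1.73, 2.404 and 2.87 CPM in HD mutant, 7.04 and 10.7 in DKO, and 2.59 (lowest), 4.998 (median) and 6.301 CPM (highest) in LCD KO. Klf6 had 5.51 and 7.71 CPM in Dnmt3a KO, 2.54 and 3.66 in labelled Tet3 KO, and 1.43 (lowest), 1.97 (median) and 4.39 CPM (highest) in WT. DKO and Dnmt3a KO lay above all WT libraries, while LCD KO and HD mutant overlapped WT. Klf6 rose in LCD KO by a log2 fold change of 1.12 ± 0.33 (adjusted p = 0.0171) and in DKO over WT by 1.76 ± 0.47 (adjusted p = 0.0316). The LCD KO call was lost without WT 4 (adjusted p = 0.0536), and the DKO call without DKO 1 (0.065), DKO 2 (0.238), WT 5 (0.0524) or WT 6 (0.12). In Dnmt3a KO it averaged 6.61 CPM, against 2.35 CPM in WT of batch 3, a log2 fold change of 1.37 ± 0.48 that did not pass (unadjusted p = 0.0081, adjusted p = 0.202), and DKO over Dnmt3a KO gave 0.39 ± 0.49 (adjusted p = 0.789).

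Klf13, a Sin3a-binding member known from T lymphocytes and heart, stood apart in the HD mutant. It had 48.1, 49.5, 66.2, 59.1 and 70.0 CPM in HD mutant, a mean of 58.6 ± 9.75 CPM (SD, n = 5), and 27.0 ± 7.71 CPM in WT (n = 6), where the highest library had 36.7 CPM. All 5 HD mutant libraries, the 2 without a stated batch included, lay above every library of the other groups, an order noticed after the values were seen. In LCD KO Klf13 averaged 27.0 ± 6.40 CPM (n = 7), in DKO 33.0, in Dnmt3a KO 31.0 and in labelled Tet3 KO 25.8 CPM (n = 2 each). Its log2 fold change did not pass in HD mutant over WT (0.66 ± 0.24, adjusted p = 0.0863) or over LCD KO (0.71 ± 0.22, adjusted p = 0.104) in the tests on libraries 1 to 3 with batch. With libraries 4 and 5 included and no batch term it was 1.11 over WT (adjusted p = 0.0067) and 1.11 over LCD KO (adjusted p = 0.0101). No HD mutant library with a stated batch came from batch 1, where Klf13 averaged 20.5 CPM in WT. In WT of batches 2 and 3 Klf13 stood at 32.2 and 34.1 CPM, so the fit without a batch term mixes batch with group. Within batch 2 Klf13 averaged 54.6 CPM in HD mutant, 34.6 in LCD KO and 32.2 in the WT library, without overlap. Genes on the opposite strand, Gm27252 and E030018B13Rik, overlap Klf13, and since the strand setting of the counting is not given in the sources used here, their reads cannot be told apart from its own.

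Klf17 was the most abundant member by far, and none of its comparisons passed the test. It had 435 to 1202 CPM in HD mutant, 804 and 818 in DKO, 758 to 1790 in LCD KO, 816.5 and 765 in Dnmt3a KO, 848 and 925 in labelled Tet3 KO and 604 to 2405 CPM in WT. The spread followed the batch: in batch 1 it averaged 1739 CPM in LCD KO and 2191 CPM in WT, and in batch 3 it averaged 842 in LCD KO and 732 in WT. The log2 fold change over WT was -0.11 ± 0.11 in LCD KO (adjusted p = 0.539) and 0.32 ± 0.18 in HD mutant (adjusted p = 0.268). In batch 1 alone the 3 LCD KO libraries were lower than the 3 WT libraries, with no overlap and a log2 fold change of -0.31 (adjusted p = 0.0477).

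Klf16, another Sin3a-binding repressor, differed more between libraries of a group than between groups. In batch 3 it had 8.29 and 43.0 CPM in DKO, 10.7 and 46.6 in LCD KO, 18.7 and 43.7 in Dnmt3a KO, 7.15 and 30.0 in labelled Tet3 KO, and 10.7 and 42.5 CPM in WT. In each of these 5 pairs the higher-numbered library had 2.33 to 5.19 times the level of the other. The 5 HD mutant libraries ranged in the same way, with 12.9, 43.0, 57.1, 12.02 and 63.1 CPM, while in batch 1 it had 34.2 to 42.4 CPM in LCD KO and 22.1 to 28.5 CPM in WT. No comparison of Klf16 passed; in batch 1 alone LCD KO over WT gave 0.54 (adjusted p = 0.0346).

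The members best known from pluripotent cells were near the limit of detection. Klf4 had 0 to 17 counts per library, and its log2 fold change did not pass in LCD KO (0.64 ± 0.55, adjusted p = 0.448) or HD mutant (1.11 ± 0.74, adjusted p = 0.374). Klf2 had 0 to 34 counts, Klf5 0 to 4 with 15 of 24 libraries at 0, and Klf9, a Sin3a-binding member, 0 to 7 with 7 of 24 at 0. These 3 did not pass the filter on low counts, so 7 of the 10 members were tested. A count of 0 allows a level of up to 0.333 to 1.72 CPM, depending on the library, counting error alone considered.

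**Figure D2:**
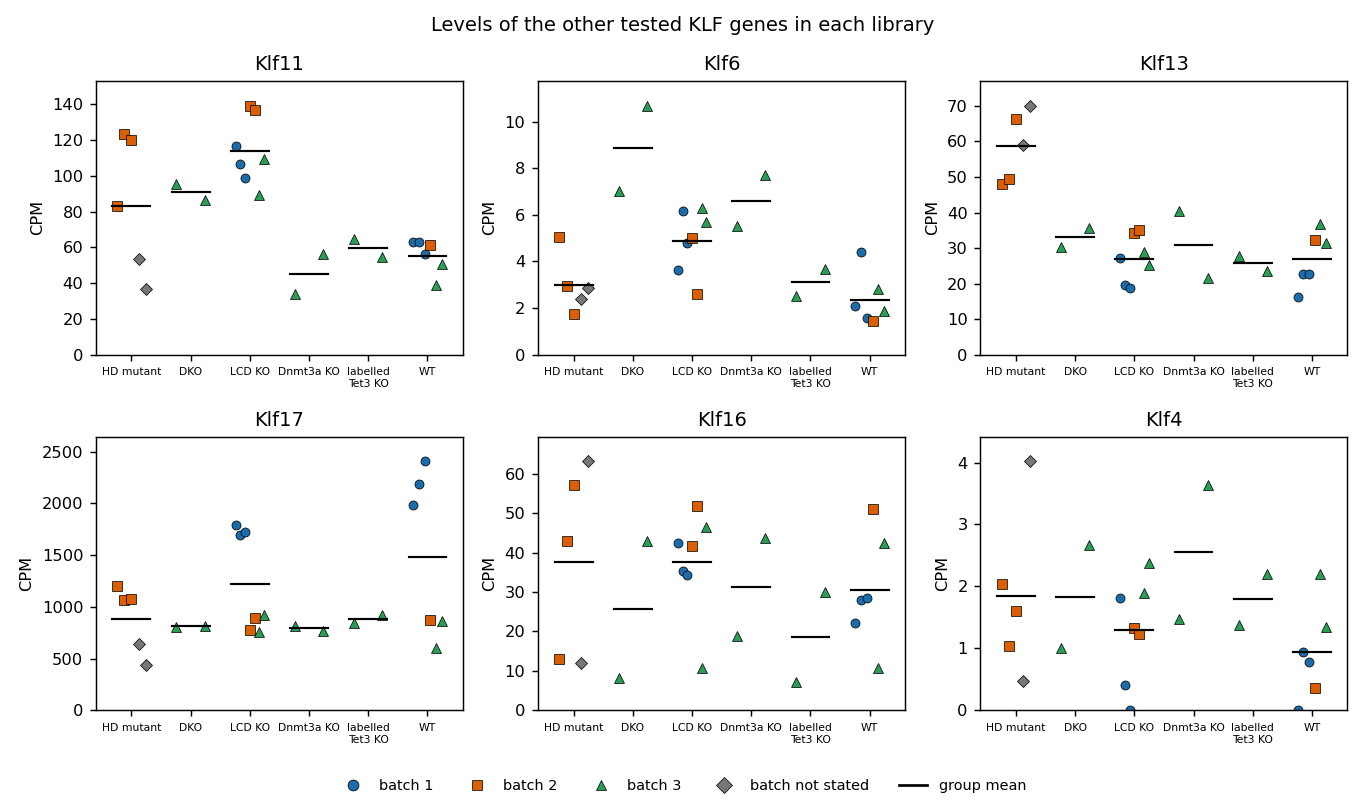
Levels of Klf11, Klf6, Klf13, Klf17, Klf16 and Klf4 in each library in CPM on linear axes, by group, with batch shown by colour and marker and a line at each group mean. Klf11 in LCD KO lies at 89.2 to 139 CPM, above all WT libraries, Klf13 is highest in HD mutant, and Klf17 and Klf16 spread by batch and by library.

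Per kilobase of exon, the family was dominated by Klf17. Its median over the 24 libraries was 368 CPM per kb, against 17.0 for Klf11, 13.0 for Klf16, 10.8 for Klf10, 4.11 for Klf13, 0.830 for Klf6, 0.446 for Klf4, 0.432 for Klf2, 0.0607 for Klf9 and 0 for Klf5. Klf10 stood at a mean of 11.3 CPM per kb in HD mutant, 25.0 in DKO and 18.3 in LCD KO, against 2.60 in Dnmt3a KO, 2.77 in labelled Tet3 KO and 1.70 in WT. Its share of the summed per-kb level of the 10 members was 3.08% in HD mutant, 6.23% in DKO, 3.40% in LCD KO, 0.720% in Dnmt3a KO, 0.701% in labelled Tet3 KO and 0.327% in WT. Klf17 made up 85.9 ± 5.69% of the sum in HD mutant (SD), 84.3 ± 2.23% in DKO, 87.7 ± 4.14% in LCD KO, 91.2 ± 2.73% in Dnmt3a KO, 92.8 ± 0.583% in labelled Tet3 KO and 94.0 ± 3.18% in WT. In WT Klf17 averaged 913 CPM per kb in batch 1 and 304.9 in batch 3. The groups differ in their batches, so these shares mix batch with group, and they were not compared within batches.

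Counted against the background, the 6 tested members other than Klf10 were called as follows. In LCD KO over WT 2 of 6 were higher, Klf11 and Klf6, where 8.89% of all genes tested were called higher, 9.44% lower and 18.3% in either direction. In HD mutant over WT 1 of 6, Klf11, was higher, where 4.08% of genes were called higher, 3.75% lower and 7.83% in either direction. In DKO over WT 2 of 6, Klf11 and Klf6, were higher, where 2.27% of genes were called higher, 1.52% lower and 3.79% in either direction. In DKO over Dnmt3a KO 1 of 6, Klf11, was higher, where 1.07% of genes were called higher, 0.924% lower and 1.99% in either direction. No member was called lower in any comparison. With Klf10 included, 0 of 7 were called in Dnmt3a KO over WT (0.755% of genes called), labelled Tet3 KO over WT (1.37%), HD mutant over LCD KO (2.08%), DKO over LCD KO (0.314%) and the non-additivity term (0.0678%) by edgeR, and 0 by DESeq2. At an unadjusted p under 0.05 edgeR gave 2 members in Dnmt3a KO over WT (Klf10 and Klf6) and 1 in labelled Tet3 KO over WT (Klf10). It gave 3 in HD mutant over LCD KO (Klf10, Klf13 and Klf17), 1 in DKO over LCD KO (Klf10) and 0 for the non-additivity term. The share of all genes at an unadjusted p under 0.05 was not computed. The shares above are at the adjusted threshold, so these unadjusted counts have no background to be read against.

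**Figure D3:**
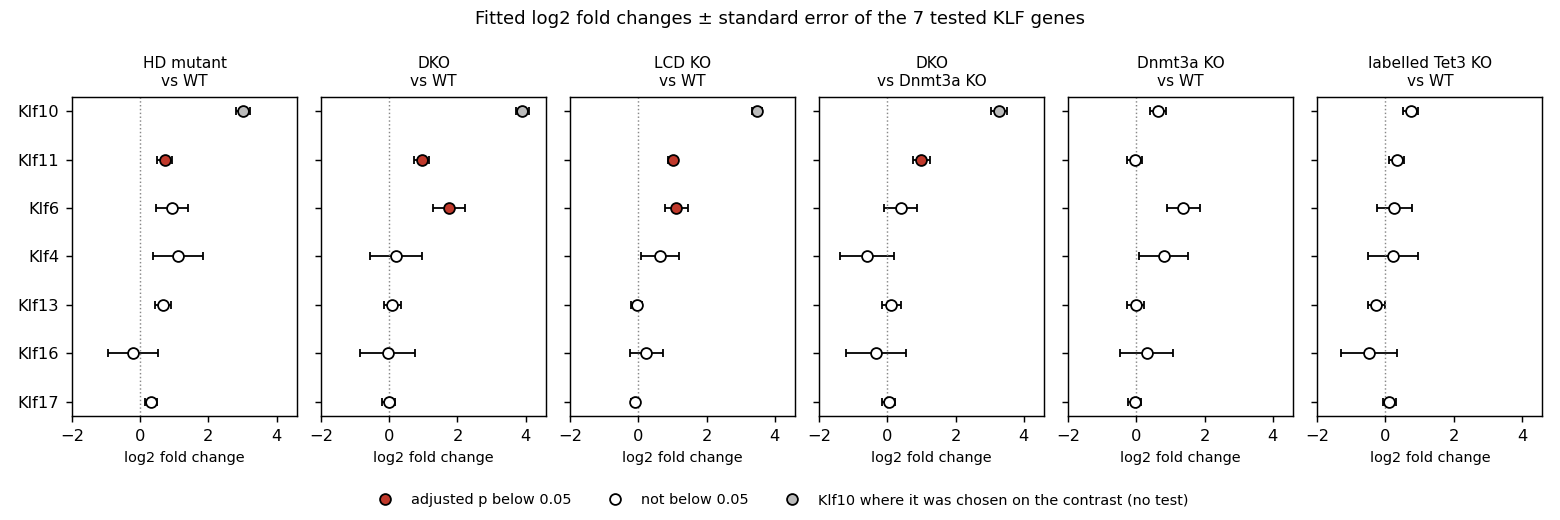
Log2 fold change ± SE of the 7 tested members in 6 comparisons. Red points passed an adjusted p of 0.05, white points did not, and grey points mark Klf10 where the comparison chose it; Klf11 in LCD KO over WT is at 1.002 and Klf6 in DKO over WT at 1.76.

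Among 7 further KLF genes, 2 had enough counts to be tested. Klf12, a repressor that recruits CtBP, had 9.28, 5.92, 5.32, 14.4 and 3.44 CPM in HD mutant and a mean of 1.51 CPM in WT, all WT libraries lying below. It rose in HD mutant over WT by a log2 fold change of 3.60 ± 0.63 (adjusted p = 0.00062), and within batch 2 stood at 6.84 CPM in HD mutant and 0.358 CPM in the single WT library. Klf12 also passed in LCD KO over WT (1.24 ± 0.44, adjusted p = 0.0473), but that call was lost without any 1 of LCD KO 1, 3, 4, 5 or 7 or WT 1, 2, 3 or 4 (adjusted p 0.0529 to 0.219). In HD mutant over LCD KO it passed too (2.36 ± 0.54, adjusted p = 0.0154) and was lost without HD mutant 1 (0.0743), LCD KO 4 (0.101) or LCD KO 5 (0.0885). Reads of its opposite-strand neighbours 4930517O19Rik and Gm16260 cannot be told apart from its own. Klf7, the other one tested, did not pass in LCD KO (0.33 ± 0.13, adjusted p = 0.0883), and of 9 SP genes, the sister family of zinc finger factors, 4 were tested and 0 passed there.

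The TGF-beta pathway, which is known to induce Klf10 and Klf11, was described by lists of its ligands, receptors, SMADs, regulators and targets in LCD KO over WT, where the median log2 fold change of all genes was -0.02, with 8.89% of all genes called higher and 9.44% lower. Of 7 ligands tested, 2 fell and 0 rose (median -0.38): Tgfb2, at 559 ± 133 CPM in LCD KO and 814 ± 331 in WT (log2 fold change -0.38, adjusted p = 0.0191), and Bmp6 (-0.44, adjusted p = 0.0213). Of 9 receptors, 3 fell and 0 rose (median -0.30). Acvr2b, an activin type II receptor, fell by 1.66 ± 0.37 on the log2 scale (adjusted p = 0.00241), with 2.24 ± 1.13 CPM in LCD KO and 6.51 ± 4.28 in WT, and the BMP type I receptors Bmpr1a and Acvr1 had log2 fold changes of -0.68 and -1.46 (adjusted p = 0.0295 and 0.0332). Single libraries ended 4 of these 5 calls. That of Tgfb2 was lost without LCD KO 3 (0.0522) and that of Bmp6 without LCD KO 1 (0.0538) or WT 1 (0.0556). That of Bmpr1a was lost without LCD KO 2, 3, 4 or 7 or WT 1, 2 or 4 (0.0509 to 0.0709), and that of Acvr1 without LCD KO 1, 2, 5 or 6 or WT 2 or 4 (0.0508 to 0.189). Acvr2b kept its call without any 1 of the 13 libraries.

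The SMADs, which carry the signal to the nucleus, included 3 that fell of 6 tested and 0 that rose (median -0.49). Smad5, a transducer of BMP signals, had 1.73 ± 1.31 CPM in LCD KO and 6.13 ± 3.20 in WT (log2 fold change -1.97 ± 0.35, adjusted p = 0.000259), and Smad2, which acts for TGF-beta and activin, 52.2 ± 7.33 CPM in LCD KO and 76.4 ± 14.5 in WT (-0.48 ± 0.11, adjusted p = 0.00371). Smad1 had a log2 fold change of -0.90 (adjusted p = 0.0126), lost without WT 4 (0.0556). Smad7, the inhibitory SMAD that KLF10 is known to repress in human cells, did not pass the filter on low counts. Of 8 regulators, 2 rose and 2 fell (median -0.40). Fstl3, a secreted binder of activin, had 4.56 ± 1.91 CPM in LCD KO and 1.67 ± 0.772 in WT (1.33 ± 0.35, adjusted p = 0.00828). The SMAD ubiquitin ligase Smurf2 had 24.5 CPM in LCD KO and 43.3 in WT (-0.70 ± 0.15, adjusted p = 0.00195), and the co-repressor Tgif2 14.2 CPM in LCD KO and 23.5 in WT (-0.67 ± 0.19, adjusted p = 0.0142). Tgif1 had 0.55 (adjusted p = 0.0456), a call lost without LCD KO 1, 2, 3, 4, 5 or 6 or WT 1, 3, 4 or 6 (0.0576 to 0.113).

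Of 6 tested target genes of TGF-beta and BMP signalling, 1 rose and 0 fell in LCD KO (median 0.54). It was Id3, which blocks basic helix-loop-helix factors and is a textbook target of BMP signals, with 43.8 ± 12.2 CPM in LCD KO (n = 7) and 18.8 ± 8.499 CPM in WT (n = 6; log2 fold change 1.15 ± 0.20, adjusted p = 0.000262). Within batches Id3 averaged 54.8 CPM in LCD KO and 17.3 in WT in batch 1, 42.3 and 34.7 in batch 2, and 28.6 and 13.2 in batch 3, without overlap. Batch 2 had a single WT library and batch 3 had 2 libraries of each group, so the lack of overlap carries little weight there. Id3 also rose in DKO over WT, with 55.01 ± 9.93 CPM in DKO (2.08 ± 0.31, adjusted p = 0.000149), and both calls held without any 1 library. It also passed in HD mutant over WT (0.93, adjusted p = 0.0471) and in Dnmt3a KO over WT (1.32 ± 0.32, adjusted p = 0.0464). These calls were lost without HD mutant 1 or 3 or WT 1, 2, 3 or 6 (0.0654 to 0.198) and without either Dnmt3a KO library or WT 1, 2, 3 or 6 (0.0508 to 0.262). Of 8 immediate early genes tested, 0 passed in LCD KO (median 0.42), Egr1 at 0.19 (adjusted p = 0.598) and Fos at 1.67 ± 0.76 (adjusted p = 0.128) among them.

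Partners through which KLF proteins act were set beside the same 18.3% of all genes called in LCD KO over WT. Of 14 repressor partners tested, 1 rose and 1 fell (median 0.07): Sin3a and Sin3b stood at 0.07 each (adjusted p = 0.806 and 0.702), Hdac1 at 0.51 (adjusted p = 0.0491) and Ctbp1 at -0.69 (adjusted p = 0.0465). The Hdac1 call was lost without any 1 of LCD KO 1, 2, 4, 5, 6 or 7 or WT 1 to 6 (0.0514 to 0.168), and that of Ctbp1 without LCD KO 2, 3, 4, 6 or 7 or WT 1, 2 or 6 (0.0582 to 0.15). Of 6 ubiquitin ligases known to act on KLF proteins, 1 rose and 1 fell: Siah1a, whose human counterpart SIAH1 degrades KLF10, had 22.8 CPM in LCD KO and 39.6 in WT (log2 fold change -0.87 ± 0.16, adjusted p = 0.000342), and its close copy Siah1b 291 CPM in LCD KO and 236 in WT (0.39 ± 0.11, adjusted p = 0.0143). The 2 genes are near-identical in sequence, so how reads were split between them is uncertain. None of 3 acetyltransferase co-activators (median -0.30) and none of 6 pluripotency genes tested (median 0.03) passed.

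In the other comparisons few list genes passed, and each call given here was lost without at least 1 single library. In HD mutant over WT Acvr2b fell by 1.76 (adjusted p = 0.0287, lost without HD mutant 1 or 3 or WT 4, 0.0679 to 0.215). Cdkn1a, a cell cycle inhibitor, fell by 2.00 (0.0257, lost without HD mutant 1 or 2 or WT 4, 0.0506 to 0.0742), and Btg2, an antiproliferative immediate early gene, rose by 0.97 (0.0171, lost without HD mutant 1, 0.0768). In HD mutant over LCD KO Tgif2 rose by 1.07 (0.0214, lost without HD mutant 2 or LCD KO 4 or 5, 0.0688 to 0.0958). Cdkn1a fell there by 1.92 (0.0343, lost without HD mutant 1, 2 or 3 or LCD KO 4 or 5, 0.0959 to 0.191). In DKO Smad1 fell by 1.56 over WT (0.0472, lost without DKO 2 or any 1 of WT 1 to 6, 0.0538 to 0.393). Acvr2b fell by 2.49 over Dnmt3a KO (0.0407, lost without any 1 of the 4 libraries, 0.0831 to 0.252). Values in parentheses here are edgeR's adjusted p-values.

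The genes whose pattern was most like that of Klf10 were found by Pearson's r of log2(CPM + 1), minus the WT mean of the batch, among 11049 genes and the 22 libraries whose batch was given. The libraries share groups and batches, so r is a description of likeness alone. Lztfl1, a regulator of ciliary protein traffic, had an r of 0.97, Arl13b, a ciliary GTPase, 0.96, Spats2l 0.95, Sertad3 0.93 and the zinc finger gene Zfp948 0.92. Lztfl1 averaged 111.5 CPM in HD mutant, 101 in DKO and 120 in LCD KO, against 46.6 in Dnmt3a KO, 48.4 in labelled Tet3 KO and 47.2 in WT. Arl13b had 37.4, 53.8 and 51.1 CPM in HD mutant, DKO and LCD KO, against 18.6 in Dnmt3a KO, 21.4 in labelled Tet3 KO and 17.6 in WT. Both were picked for their likeness to Klf10, so the shared split of groups follows from that choice. Their ratios between groups were smaller.

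The most opposite genes were Faxc (r = -0.95), the cadherin gene Cdh4 (-0.94) and Tmem30b (-0.92). Faxc had 4.01 CPM in HD mutant, 2.05 in DKO and 2.36 in LCD KO, against 12.4 in Dnmt3a KO, 9.16 in labelled Tet3 KO and 10.3 in WT. Among the members, Klf11 was most like Klf10 with an r of 0.89, followed by Klf6 with 0.64, Klf4 with 0.26, Klf13 with 0.24, Klf16 with -0.02 and Klf17 with -0.07. Of the 5 genes most like Klf10, 4 were still among the 5 with a pseudocount of 0.5, and 1 by Spearman's rho.

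**Figure D4:**
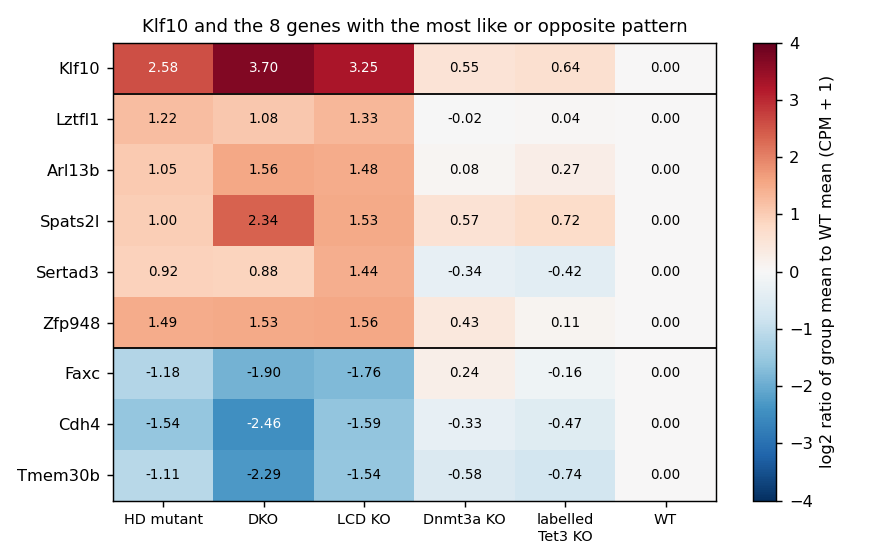
Heat map of the log2 ratio of each group mean to the WT mean, on CPM + 1, for Klf10, the 5 genes most like it and the 3 most opposite. Klf10 and the 5 genes are higher in HD mutant, DKO and LCD KO, and Faxc, Cdh4 and Tmem30b lower, while Dnmt3a KO and labelled Tet3 KO stay nearer to WT. The genes were picked for these patterns, so the split of groups follows from the choice.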

How the data were processed

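RNA-seq of GV oocytes was deposited by the authors as 1 table of raw read counts per gene. Per the submitters' processing notes, Trim Galore 0.5.0, HISAT2 2.1.0, featureCounts 1.6.4 and mm9 were used; the annotation and strand setting are not given in the sources used here. The members and lists were chosen with earlier results of these data known.

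From 24542 rows, 92 spike-in (ERCC) rows were left out. Identical columns were counted once; the 50 other pairs of libraries of a group differed beyond sampling noise (lowest chi-square over degrees of freedom 3.63). Counts of the 22 libraries with a stated batch were tested with edgeR 4.0.16 in R 4.3.3 (TMM, filterByExpr, robust quasi-likelihood F test, group plus batch, 14 residual degrees of freedom, 11794 genes, Benjamini-Hochberg below 0.05). SE is the log2 fold change divided by the square root of F. CPM uses TMM over 24 libraries. Exon lengths are from GENCODE M21, on GRCm38, not mm9, and promoters from RefSeq GRCm38.p6. Named genes were the members, members of the lists that passed, and the 5 genes most like and 3 most opposite to Klf10; list genes named with values that did not pass (Sin3a, Sin3b, Egr1, Fos, Klf7) and Smad7 were picked after the values were seen.

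Counts simulated for LCD KO and WT on 11250 genes recovered 100% of genes changed by a log2 fold of 2 and 98% of those changed by 1, with 13 false calls. The simulation had the same dispersion for every gene, no batch effect, and changes only in genes with ample counts. It therefore does not give the rate of recovery for low-count members such as Klf6 and Klf4, or for the smaller groups. Alternatives were DESeq2 1.42.0 and its size factors, no filter, no batch term, single batches, a replicate block and leaving out each library. Libraries of LCD KO and WT with the same number correlated in their deviations from the group means at 0.257 to 0.762 where they shared a batch and at -0.399 for number 5, whose libraries came from different batches. Within batch 3 the difference between the higher- and the lower-numbered library correlated at -0.001 to 0.37 between groups. No label ties the numbers to an animal or day, so they were not taken to pair the samples.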

Additional observations from a re-analysis of the deposited data

Results flagged for a closer look

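Among the 5 HD mutant libraries Klf2 had 4.21 CPM in library 3, far from the others. Klf5 stood at 0.951 CPM in LCD KO 7 and 0.179 CPM in WT 4, each far from the rest of its group, on 4 counts and 1 count. Klf9 stood at 1.92 CPM in HD mutant 4 and 1.87 CPM in WT 6, again apart from the other libraries of the group, on 4 and 7 counts. Klf16 had 10.7 CPM in LCD KO 6, well below the other LCD KO libraries. These are 6 of 30 pairs of a gene and a group of 5 to 7 libraries, and chance picks out about 1 in 20 for normally spread values. Most of the 6 rest on counts of 0 to a few, for which that rate was not checked.

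HD mutant libraries 4 and 5, which have no stated batch and stayed outside the tests, lay above every WT library for Klf10, with 58.2 and 49.4 CPM, and for Klf13, with 59.1 and 70.0 CPM. Klf10 was chosen for its level in HD mutant among other groups, so its place there follows from the choice. Klf11 did not share it, with 53.4 and 36.7 CPM, within and below the WT range.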

How the results depend on the processing

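Among the 7 tested members, leaving out single libraries left 564 of 602 fold changes the same, 25 moved and 13 were no longer called. A called fold change counted as the same if it kept its call and direction. An uncalled one counted as the same if it stayed uncalled and shifted by less than its SE, whatever its sign, and otherwise as moved. Klf10 included, the number of members called in LCD KO over WT was 3, with 1 in batch 2 alone and 2 to 3 with 1 library left out. It was 2 in HD mutant over WT, with 4 under a replicate block, 1 in batch 2 alone and 1 to 2 with 1 library left out. In DKO over WT it was 3, with 1 in batch 3 alone and 1 to 3 with 1 library left out. In DKO over Dnmt3a KO it was 2, with 1 without a batch term, under the block and in batch 3 alone, and 1 to 2 with 1 library left out. Klf10, chosen on these 4 comparisons, makes up 1 of every count in them, so what varies is the other members. It was 0 in the others, with 1 under the block in Dnmt3a KO over WT, labelled Tet3 KO over WT and DKO over LCD KO. HD mutant over LCD KO gave 3 under the block and 1 without a batch term.

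The block on replicate numbers, which no label ties to a shared animal or day and which here takes the place of batch, gave Klf17 -0.88 in HD mutant over WT, -1.19 in labelled Tet3 KO over WT, -0.74 in HD mutant over LCD KO and -1.19 in DKO over LCD KO, a reversed direction in each. A block on the numbers within batch 3, added after seeing the data, left the number of members called as it was in every comparison. The block across batches also gave Klf10 -0.98 in HD mutant over LCD KO. Tgfb2 in LCD KO over WT was 0.084 in batch 2 alone. The cause was not tested.

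Over all genes, LCD KO over WT had 2162 calls (357 without a batch term, 818 under the block, 2851 in batch 1 alone, 12 in batch 2 alone, 88 in batch 3 alone, and 1685 to 2309 with 1 library left out). HD mutant over WT had 923 (405, 3477 under the block, 40 in batch 2; 384 to 1114). DKO over WT had 447 (672 without a filter, 167 without batch, 1961 under the block, 179 in batch 3; 164 to 471). DKO over Dnmt3a KO had 235 (378 by DESeq2, 449 without a filter, 4 without batch, 24 under the block; 78 to 115). Dnmt3a KO over WT had 89 (185 by DESeq2, 311 without a filter, 15 without batch, 1437 under the block, 54 in batch 3, 176 with a block within batch 3, added after seeing the data; 26 to 116). Labelled Tet3 KO over WT had 162 (284 without a filter, 47 without batch, 1163 under the block; 55 to 172). HD mutant over LCD KO had 245 (410 without a filter, 99 without batch, 3048 under the block, 102 in batch 2; 92 to 277). DKO over LCD KO had 37 (72 by DESeq2, 122 without a filter, 5 without batch, 1588 under the block, 57 without batch 2; 12 to 41). The non-additivity term had 8 (33 by DESeq2, 70 without a filter, 2 without batch, 2 under the block, 13 in batch 3, 16 without batch 2; 6 to 14). DESeq2 changed the split of higher and lower calls from 28 and 9 to 40 and 32 in DKO over LCD KO, and from 6 and 2 to 19 and 14 in the non-additivity term. Of the 5 genes most like Klf10, 1 was kept by Spearman's rho. Groups of 2 libraries, a single WT library in batch 2 and counts of at most 34 for Klf2 and fewer for Klf4, Klf5 and Klf9 limit what could be detected.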

Other observations

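Several oocyte genes other than KLF genes were lower in LCD KO than in WT. Of 11 tested oocyte markers, 5 fell and 0 rose (median log2 fold change -0.46), where 9.44% of all genes were called lower: the zona pellucida genes Zp1 (-0.49) and Zp2 (-0.68), the transcription factor gene Figla (-0.68), Oosp1 (-0.46) and the meiotic kinase gene Mos (-0.77). The call of Oosp1 was lost without LCD KO 1 or 2 or WT 1 or 4 (edgeR's adjusted p 0.0606 to 0.102). Of the same markers 2 fell in HD mutant over WT, where 3.75% of all genes were called lower. The call of Zp2 (-0.93, adjusted p = 0.0236) was lost without HD mutant 1 (0.11). That of Figla (-0.72, adjusted p = 0.0344) was lost without HD mutant 1 or 2 or WT 4 (0.0758 to 0.15). In labelled Tet3 KO over WT 1 fell, where 0.822% of all genes were called lower. It was the subcortical maternal complex gene Ooep (-1.15, adjusted p = 0.00672), lost without either labelled Tet3 KO library (0.112 and 0.159). In DKO and Dnmt3a KO over WT 0 of 11 passed, where 3.79% and 0.755% of all genes were called in either direction. Of 2 theca or stroma markers tested, 1 rose in LCD KO over WT, where 8.89% of all genes were called higher. It was Dcn, which encodes a matrix proteoglycan, with 3.49 ± 0.987 CPM in LCD KO and 0.739 ± 0.359 in WT (SD, n = 7 and 6; log2 fold change 2.08 ± 0.44, adjusted p = 0.00161). None of the 4 granulosa or cumulus markers and none of the 3 blood, immune or endothelial markers tested passed there, where 18.3% of all genes were called in either direction.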
